A study of Mus musculus with 2 samples.

Results

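Complement components and receptors were followed through the cells of pancreatic tumours from vehicle-treated and takinib-treated mice. The 9 genes are C1qa, C1qb and C1qc (the chains of C1q), C3, C4b and Cfb (the components from which convertases are built), C3ar1 and C5ar1 (receptors of the released fragments) and Serping1 (the C1 inhibitor). They were chosen by symbol from the 32285 genes of the deposited matrices, and all 9 were found in both libraries. Each was summed as raw UMI counts (unique molecular identifiers, the tags by which each captured transcript is counted once) over the cells of a class. The sum was divided by all UMIs of that class and library to give CPM, counts per 1000000 UMIs.

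The material was pancreatic tumour of KPPC mice, taken at single-cell level with droplet libraries. KPPC is a name used for mice that develop pancreatic cancer through engineered alleles active in the pancreas. The labels give the genotype by this name alone, without the alleles or the Cre driver, and the same genotype is given for both groups. The mice were 6 weeks old. The vehicle group is 1 library, and the takinib group is 1 library from mice given 50 mg/kg of takinib, an inhibitor of the kinase TAK1 (Map3k7), with treatment lasting 14 days in each group. How many mice went into a library is not given in the sources used here. With 1 library a group there was no test, and every difference below describes these libraries. Intervals in square brackets are 95% intervals that cover counting error only.

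Complement is a cascade of plasma and locally made proteins. C1q binds antibody or altered surfaces and starts the classical pathway, C4b and C3 are then cleaved and deposited, and factor B (Cfb) joins C3b in the convertase of the alternative pathway. The small fragments C3a and C5a signal through C3ar1 and C5ar1 on myeloid cells, and the C1 inhibitor blocks the proteases that C1q activates. In tissues, C1q is known as a product of macrophages, while fibroblasts and epithelia are known to make C3, C4 and factor B.

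After the same filters in both libraries, 9558 cells of the vehicle library (42000538 UMIs) and 25183 of the takinib library (119726977 UMIs) remained. Clusters were named from marker genes that include no complement gene, and 25 of 29 clusters received a class name. Mitochondrial UMIs had a median share of 8.70% in vehicle cells and 1.79% in takinib cells, and 359 cell barcodes occurred in both, 3.76% of the vehicle and 1.43% of the takinib cells. In vehicle 1075 cells held Xist and no Y-linked UMI and 3087 held the reverse, whereas takinib had 14324 Xist-only cells and 0 with a Y-linked UMI. The vehicle library therefore held cells of both sexes. The neutrophil-like class was 2.86% of vehicle cells and 48.1% of takinib cells. The neutrophil transcripts S100a8 and S100a9 were at 6107 CPM (macrophage-like) to 45526 CPM (B-like) in the takinib classes compared here other than the neutrophil-like class, against 54.3 to 717 CPM in the same vehicle classes. Library, software version and treatment cannot be told apart by this design, and for sex only the Xist-only vehicle cells can be set against takinib.

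By GENCODE M21 on GRCm38, the C1q genes lie side by side on the minus strand of chromosome 4 in the order C1qb (136880129 to 136886187), C1qc (136889804 to 136893065) and C1qa (136895917 to 136898803), a span of 18675 bases. C3 lies on chromosome 17 (57203970 to 57228136). C4b (34728380 to 34743882) and Cfb (34856374 to 34862518) lie on the same chromosome. C3ar1 is on chromosome 6 (122847138 to 122856161), C5ar1 on chromosome 7 (16246743 to 16259540) and Serping1 on chromosome 2 (84765387 to 84775444), and all 9 are protein-coding genes on the minus strand.

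RefSeq promoter windows of GRCm38.p6, 250 bases before and 50 bases after the annotated start, were matched for 5 of the 9 members (C1qb, C1qc, C3, C3ar1 and C5ar1). Windows of C1qb (chr4:136886151-136886450), C1qc (chr4:136892865-136893164) and C3 (chr17:57228087-57228386), all minus strand, are printed here. The C1qb and C1qc windows are shown because these neighbouring genes had nearly the same pattern across classes, and C3 because its level went in opposite directions in different cells. Capitals mark GAGGAA (an ETS-type core, read as TTCCTC on the other strand) in C1qb and C1qc, and TTGCNNAA (a C/EBP-type site) in C3.
C1qb: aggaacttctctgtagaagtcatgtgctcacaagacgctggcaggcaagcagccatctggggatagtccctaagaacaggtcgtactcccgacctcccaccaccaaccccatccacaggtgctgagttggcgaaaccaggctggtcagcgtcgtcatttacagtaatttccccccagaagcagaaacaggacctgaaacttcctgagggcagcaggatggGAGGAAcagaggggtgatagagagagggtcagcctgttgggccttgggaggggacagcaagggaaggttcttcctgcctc
C1qc: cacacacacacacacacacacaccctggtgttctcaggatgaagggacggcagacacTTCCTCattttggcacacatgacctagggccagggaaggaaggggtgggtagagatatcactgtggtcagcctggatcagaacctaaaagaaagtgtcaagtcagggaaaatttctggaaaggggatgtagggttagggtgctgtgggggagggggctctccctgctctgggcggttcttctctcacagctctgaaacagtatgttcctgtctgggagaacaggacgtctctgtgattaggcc
C3: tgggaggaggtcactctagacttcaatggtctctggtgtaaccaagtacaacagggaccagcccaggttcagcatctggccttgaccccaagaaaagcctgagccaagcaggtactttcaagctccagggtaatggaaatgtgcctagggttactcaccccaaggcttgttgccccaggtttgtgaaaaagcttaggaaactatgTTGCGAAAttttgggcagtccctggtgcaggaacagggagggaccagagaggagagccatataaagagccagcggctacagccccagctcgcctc
Both strands were searched. The GAGGAA match began at position -30 in C1qb, on the strand of the gene, and at -193 in C1qc, on the other strand, and 28.3% of all 32851 promoter windows of this length held this motif. The C/EBP-type match of C3 began at -45, and 10.8% of windows held that motif. The NF-kB consensus was found in the C1qc window, beginning at -41, and in 8.46% of all windows. A match is a description of the letters in the window and not evidence of binding.

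Most C1q transcripts of both tumours were in macrophage-like cells. That class held 90.3% of the C1qa, 90.5% of the C1qb and 90.3% of the C1qc UMIs of vehicle, and 74.7%, 71.5% and 74.1% of those of takinib. A further 9.54% to 11.9% of takinib C1q UMIs were in an unnamed cluster of 2035 takinib and 2 vehicle cells, led by U90926, Saa3 and F13a1, that scored highest for macrophage markers. Over all kept cells C1qa was at 1253 CPM in vehicle against 525 CPM in takinib (log2 ratio of takinib to vehicle -1.25), while the macrophage-like share of kept cells was 48.7% and 15.8%. In such sums over all cells, fewer cells of a type and less RNA per cell cannot be told apart.

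Within macrophage-like cells the C1q chains were somewhat lower in takinib, by less than 2-fold. C1qa was at 2348 CPM in vehicle (4653 cells) and 1616 CPM in takinib (3976 cells), 1.453-fold lower, with a log2 ratio of -0.54 [-0.56, -0.52]. C1qb was at 2556 and 2040 CPM (log2 ratio -0.33 [-0.34, -0.31]). C1qc was at 1781 and 1371 CPM (log2 ratio -0.38 [-0.40, -0.36]). All 3 chains were therefore lower together, and C1qa most of the 3.

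Cells with all 3 chains were also less frequent over the class as a whole. With each cell thinned to 1000 UMIs, so that depth was equal, 57.5% [56.1, 59.0] of vehicle and 40.7% [39.2, 42.2] of takinib macrophage-like cells held UMIs of C1qa, C1qb and C1qc together, and 88.8% and 76.8% held at least 1. Epithelial-like cells, which are not known to make C1q, were at 0.883% and 0.541% with all 3 chains and 12.8% and 13.5% with any. T-like cells, also not known to make it, were higher, at 6.30% and 2.95% with all 3 and 29.9% and 21.7% with any. Median depth before thinning was 3915 and 6456 UMIs in macrophage-like cells and 5094 and 9234 UMIs in epithelial-like cells. Before thinning, 89.1% of vehicle and 80.6% of takinib macrophage-like cells held a C1qa UMI.

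The macrophage-like class was made of different clusters in the 2 libraries, and the direction of C1q depended on the cluster. A cluster led by the antigen-presentation genes H2-Ab1 and Cd74 held 76.6% of vehicle and 8.30% of takinib macrophage-like cells. There C1qa was at 2788 and 2927 CPM (log2 ratio 0.07 [0.03, 0.11]), C1qb at 3028 and 3040 CPM and C1qc at 2113 and 2186 CPM, so that the chains stood at nearly the same level in both libraries. A cluster led by Chil3 and Car4 held 14.6% of vehicle and 41.3% of takinib cells of the class, and there the chains were higher in takinib: C1qa at 683 and 1081 CPM (log2 ratio 0.66 [0.60, 0.73]), C1qb at 838 and 1349 CPM and C1qc at 476 and 874 CPM. The cluster with the highest C1qa, led by Ccl8 and Selenop, held 3.85% and 27.9% of the class. Its C1qa was at 3923 CPM in vehicle against 3258 CPM in takinib (log2 ratio -0.27 [-0.33, -0.20]), while its C1qb went the other way, at 3519 and 4088 CPM (log2 ratio 0.22). With cells thinned, 66.2% of vehicle and 64.9% of takinib cells of the H2-Ab1 cluster held all 3 chains. The shares were 13.6% and 25.7% in the Chil3 cluster and 86.59% and 77.05% in the Ccl8 cluster.

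Clusters that were nearly all takinib had low C1qa. It was at 514 CPM in a cluster led by Mmp12 and Gpnmb (39 vehicle and 714 takinib cells) and at 459 CPM in the unnamed cluster led by U90926 and Saa3. A cluster of cycling cells led by Pclaf and including Top2a had C1qa at 1409 CPM in vehicle against 1049 CPM in takinib. Monocyte-like cells had 860 CPM in vehicle (90 cells) and 533 CPM in takinib (995 cells). With clusters named by the highest score alone, which adds the U90926 cluster to the class, the C1qa log2 ratio was -0.90 in place of -0.54.

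**Figure D1:**
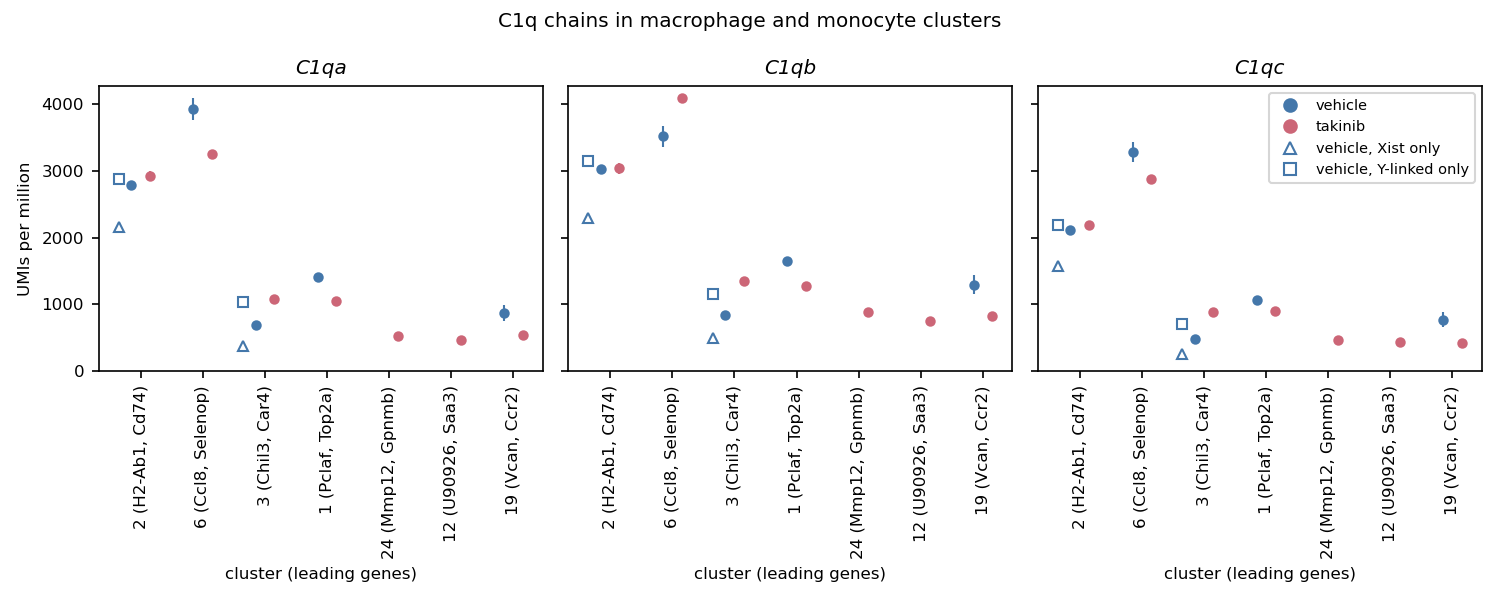
C1qa, C1qb and C1qc in CPM (y axis, linear) in the macrophage-like and monocyte-like clusters and the unnamed cluster led by U90926 and Saa3 (x axis, with leading genes). Filled points are the vehicle and takinib libraries with 95% Poisson intervals, and open symbols are vehicle cells with only Xist or only Y-linked UMIs. In the whole libraries C1qa lies between 2788 and 3923 in the clusters led by H2-Ab1 and Ccl8, with Xist-only vehicle cells of the first at 2165, and at 514 and 459 in the takinib cells of the clusters led by Mmp12 and U90926.

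The direction over the class also depended on which vehicle cells were used. In vehicle macrophage-like cells C1qa was at 976 CPM in 512 Xist-only cells and at 2637 CPM in 1299 cells with Y-linked UMIs only (log2 ratio of the first to the second -1.43 [-1.50, -1.37]). C1qb was at 1105 and 2853 CPM and C1qc at 708 and 1998 CPM in the same cells, at a median depth of 4521 and 4530 UMIs. The Chil3 cluster made up 54.7% of the Xist-only cells and 8.31% of the Y-linked-only cells, and within it C1qa was at 375 and 1025 CPM. Against the Xist-only cells, takinib C1qa was higher and not lower (log2 ratio 0.73 [0.67, 0.79]), and so were C1qb (0.88) and C1qc (0.95). The part of sex or of separate animals in the difference between libraries was not tested.

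C1q was also counted in classes not known to make it, beside macrophage transcripts. In vehicle, C1qa was at 252 CPM in endothelial-like, 769 CPM in T-like, 159 CPM in neutrophil-like, 138 CPM in fibroblast-like, 77.6 CPM in epithelial-like and 71.9 CPM in B-like cells. In takinib the same classes had 34.8, 287, 57.3, 75.6, 38.7 and 99.9 CPM. The 12 macrophage markers were all detected in each of these classes, with a summed level from 790 CPM (epithelial-like) to 5433 CPM (T-like) in vehicle and from 857 CPM (epithelial-like) to 3849 CPM (neutrophil-like) in takinib. For each macrophage marker UMI there were 0.382 C1q UMIs in vehicle and 0.399 in takinib macrophage-like cells, 0.376 and 0.308 in T-like cells and 0.275 and 0.149 in epithelial-like cells. The values were 0.302 and 0.0823 in endothelial-like, 0.219 and 0.0913 in fibroblast-like, 0.201 and 0.0449 in neutrophil-like and 0.165 and 0.118 in B-like cells. Takinib erythroid-like cells (537) had C1qa at 375 CPM and 0.447 C1q UMIs per macrophage marker UMI. Vehicle droplets of 1 to 100 UMIs, too shallow to be cells, had 0.354, with C1qa at 786 CPM. Vehicle acinar-like cells (247), which were not compared, had C1qa at 1896 CPM with macrophage markers at 15992 CPM. The part of free RNA or attached macrophages in these levels was not tested.

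C1q was past 2-fold lower in takinib in some of these classes and not in others. C1qa, C1qb and C1qc all were in endothelial-like cells (log2 ratios -2.85, -2.18 and -2.21), in neutrophil-like cells (-1.47, -1.15 and -1.92) and in T-like cells (-1.42, -1.04 and -1.18). With each library clustered on its own, C1qb and C1qc were at -0.866 and -0.863 in endothelial-like cells, and with cells thinned C1qb was at -0.391 in T-like cells, so these calls were lost. In the cluster with 264 of the 273 vehicle neutrophil-like cells, C1qa (-0.99) and C1qb (-0.58) were within 2-fold, as they were when scaled to the median gene (-0.844 and -0.525). At a mitochondrial limit of 10%, 35 vehicle and 11920 takinib neutrophil-like cells remained, and the part of this in the neutrophil-like values was not tested. C1qa alone was in epithelial-like cells (-1.004 [-1.14, -0.87]), with C1qb at 78.3 and 54.2 CPM and C1qc at 61.4 and 34.3 CPM within 2-fold there. In the main epithelial-like cluster, led by Dmbt1, C1qa and C1qc were both past 2-fold lower (log2 ratios -1.42 and -1.15). The class value of C1qa became 0.07 with complement genes among the clustering genes and 1.36 with each library clustered on its own. In fibroblast-like cells C1qb was at 131 and 93.6 CPM and C1qc at 93.6 and 52.2 CPM. In B-like cells C1qb was at 74.5 and 105.5 CPM and C1qc at 77.0 and 70.0 CPM, with intervals of the log2 ratio that include 0. In the B-like cluster that holds 203 of the 205 vehicle cells, C1qa and C1qb were past 2-fold higher in takinib (log2 ratios 1.20 [0.62, 1.82] and 1.28 [0.71, 1.91]). Vehicle levels in neutrophil-like and B-like cells rest on 28 to 59 UMIs a chain.

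**Figure D2:**
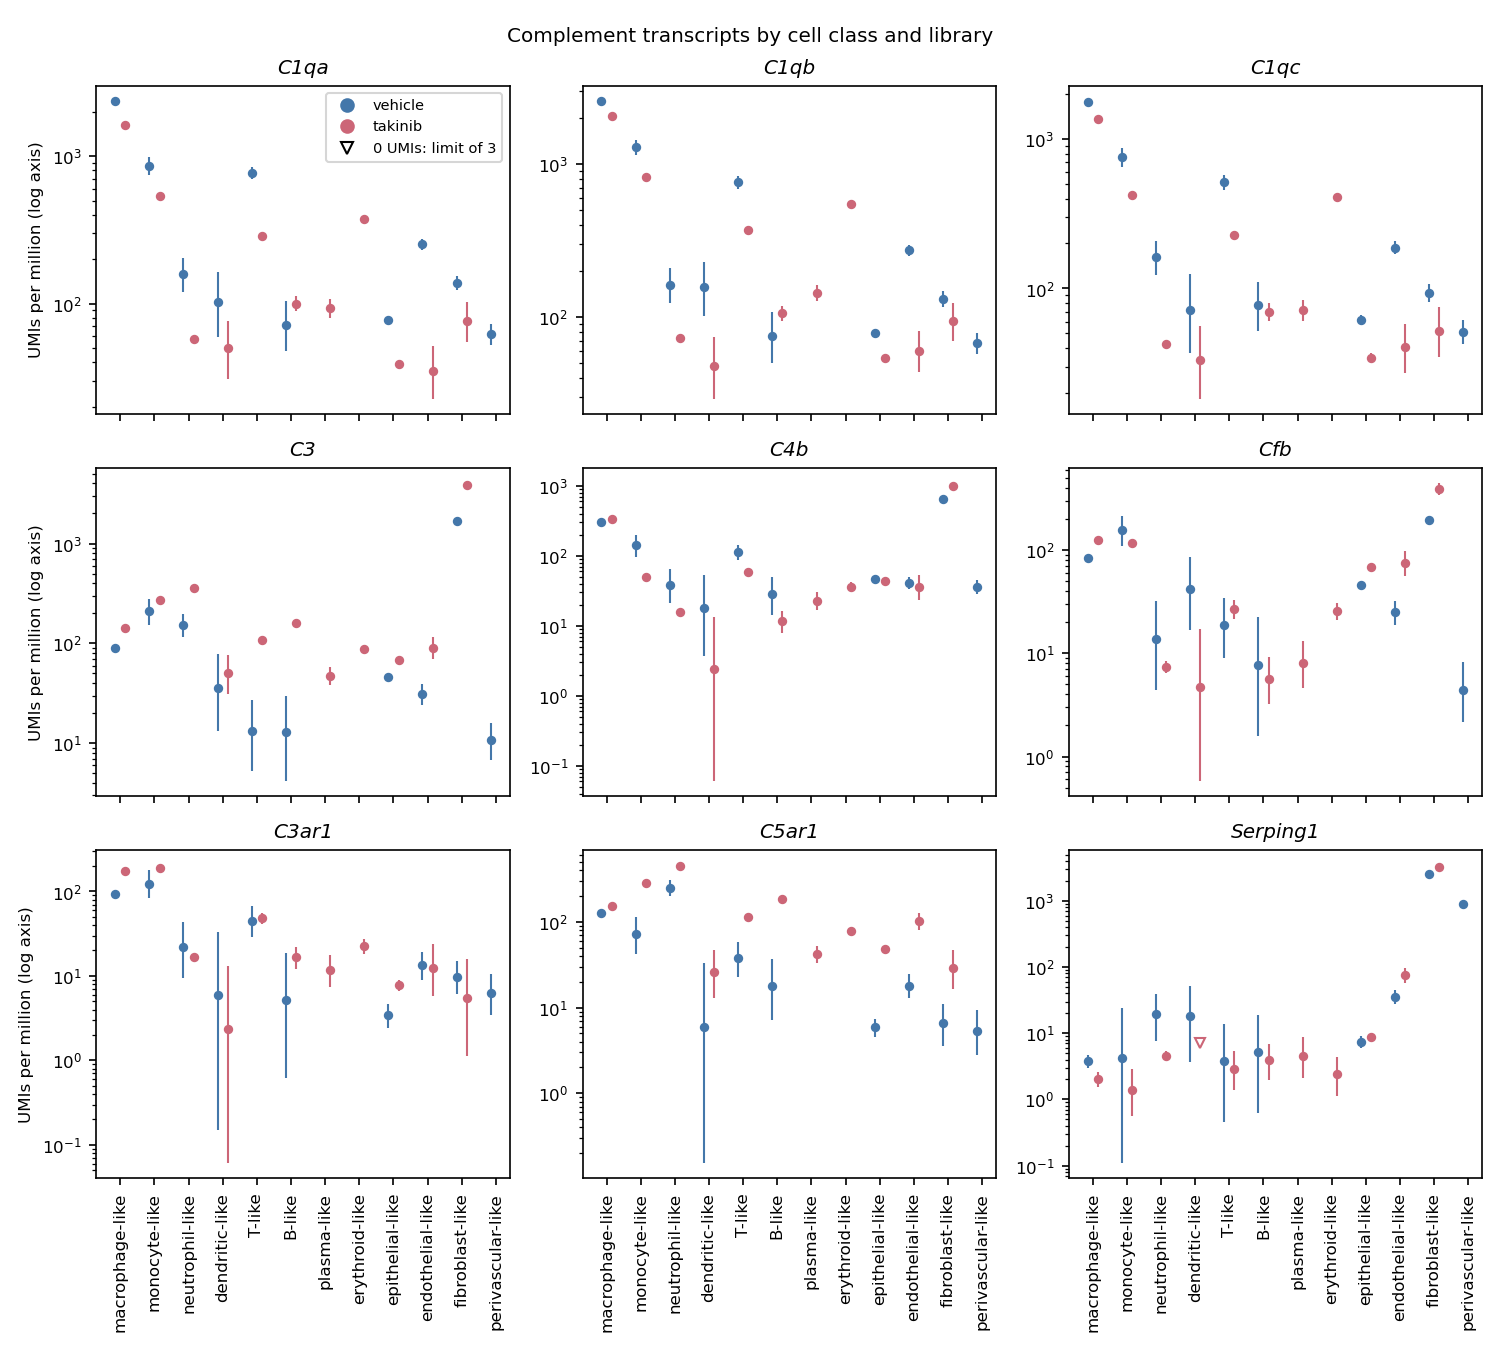
Levels of the 9 complement genes in each class, as CPM on a log axis, for vehicle and takinib with 95% Poisson intervals. An open triangle marks a gene with 0 UMIs at the limit of 3 UMIs. The C1q chains are highest in macrophage-like cells, C3, C4b and Serping1 in fibroblast-like cells, and C5ar1 in neutrophil-like cells.

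C3, the component on which all pathways converge, was spread over fibroblasts, myeloid cells and a cluster without a class name. Over all kept cells it was nearly the same in both libraries, at 270 CPM in vehicle against 276.5 CPM in takinib (log2 ratio 0.04 [0.00455, 0.07]). Its sources differed. Of the vehicle C3 UMIs 31.5% were in fibroblast-like cells, 44.8% in the unnamed cluster described next and 0.494% in neutrophil-like cells. Of the takinib C3 UMIs 6.47% were in fibroblast-like, 17.8% in that cluster and 32.3% in neutrophil-like cells.

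In fibroblast-like cells C3 was at 1673 CPM in vehicle (552 cells) and 3858 CPM in takinib (102 cells), 2.31-fold higher (log2 ratio 1.21 [1.13, 1.28]). A neighbouring cluster led by Dcn, Serpinb2 and Timp1 (136 vehicle and 251 takinib cells) scored highest for mesothelial markers, with fibroblast genes leading it, and stayed unnamed. There C3 was at 6914 CPM in vehicle against 1845 CPM in takinib, 3.75-fold lower (log2 ratio -1.91 [-1.96, -1.85]). The markers of this cluster differed as well, with mesothelial markers at 1109 and 394 CPM and macrophage markers at 4309 and 1705 CPM. Its fibroblast markers were at 15520 and 19423 CPM. The part of these shifts in the C3, C4b and Cfb levels of the cluster was not tested. C3 levels went in opposite directions in the 2 groups of C3-rich stromal cells. With both groups together C3 was at 3014 and 2143 CPM, and the log2 ratio was -0.49 [-0.54, -0.45]. The fibroblast-like log2 ratio was also below 0 without doublet removal (-0.45), with complement genes among the clustering genes (-0.49) and with each library clustered on its own (-0.04).

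In myeloid cells C3 was higher in takinib. Neutrophil-like cells had 153 CPM in vehicle (56 UMIs in 273 cells) and 360 CPM in takinib (10703 UMIs in 12102 cells), 2.34-fold higher (log2 ratio 1.23 [0.85, 1.64]). At a mitochondrial limit of 10% only 35 of these vehicle cells remained, and with no doublets removed the class held 35 vehicle cells. S100a8 and S100a9 were at 51420 and 132017 CPM in this class, and the macrophage marker Adgre1 at 205 and 40.0 CPM. The median gene of that class stood at a log2 ratio of -0.63 over 10152 genes. Of these, 3453 had at least 10 UMIs expected in both libraries, and 16.2% of the 3453 were lower and 12.4% higher past 2-fold. C3 was therefore not read against that median. Among takinib neutrophil-like clusters the C3 level ran from 229 CPM in the cluster led by Ifitm6 and Ngp to 555 CPM in the cluster led by Lst1 and Lcn2, and an unnamed cluster led by Elane and Mpo had 300 CPM. In the neutrophil-like cluster with vehicle cells, led by Ppy and Cxcr2, C3 was at 153 and 251 CPM (log2 ratio 0.71). Macrophage-like cells had 89.5 and 144 CPM (log2 ratio 0.68 [0.60, 0.76]), with the Ccl8 cluster at 112 and 183 CPM and the H2-Ab1 cluster at 100 and 102 CPM. Against Xist-only vehicle macrophage-like cells, at 50.6 CPM, the log2 ratio of C3 was 1.51 [1.25, 1.77] and past 2-fold. Monocyte-like cells had 209 and 270 CPM and the unnamed U90926 cluster 379 CPM in takinib.

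C3 in lymphocytes and endothelium was low in vehicle and higher in takinib. B-like cells had 12.8 CPM in vehicle, from 5 UMIs, and 160 CPM in takinib (log2 ratio 3.64 [2.40, 5.27]). A B-like cluster of 583 takinib and 2 vehicle cells, whose second-best score was for neutrophil markers, entered that sum, and in the other B-like cluster C3 was at 13.04 CPM (5 UMIs) and 34.3 CPM (40 UMIs). T-like cells had 13.1 CPM, from 7 UMIs, and 107.5 CPM (log2 ratio 3.03 [1.98, 4.36]). Endothelial-like cells had 30.9 and 90.5 CPM (log2 ratio 1.55 [1.03, 2.06]), a value that was -0.88 against Xist-only vehicle cells. S100a8 and S100a9 together were at 45526, 16585 and 23996 CPM in these takinib classes, against 717, 671 and 417 CPM in vehicle. For 1000 of these UMIs the takinib classes held 3.51, 6.48 and 3.77 C3 UMIs, and takinib neutrophil-like cells 2.72. The part of neutrophil RNA in the C3 of these classes was not tested.

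Epithelial-like cells had C3 at 46.6 CPM in vehicle against 67.9 CPM in takinib (log2 ratio 0.54 [0.40, 0.69]). In their main cluster, led by Dmbt1 and Wfdc2, the level was 75.1 and 66.6 CPM (log2 ratio -0.17 [-0.32, -0.02]), so the higher class value was not seen in that cluster. A cluster led by Tnc and Tm4sf1 (372 vehicle and 92 takinib cells) had 5.21 and 40.5 CPM. With the profile of neutrophil-like cells removed, scaled by S100a8 and S100a9, the log2 ratio was 0.01 in this class and 0.04 in endothelial-like cells. With complement genes among the clustering genes the epithelial-like log2 ratio was 2.48, past 2-fold.

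C4b, the classical pathway component that follows C1q, was a macrophage and fibroblast transcript in both tumours. Macrophage-like cells held 66.0% of its UMIs in vehicle and 70.2% in takinib, and fibroblast-like cells 15.03% and 3.996%. In macrophage-like cells it was at 302 and 338 CPM (log2 ratio 0.16 [0.12, 0.21]), nearly level. Its clusters differed more: C4b was at 1148 and 438.5 CPM in the Ccl8 cluster, 2.62-fold lower (log2 ratio -1.39 [-1.51, -1.26]), at 245 and 130 CPM in the H2-Ab1 cluster (log2 ratio -0.92) and at 460 and 524 CPM in the Chil3 cluster (log2 ratio 0.19 [0.11, 0.27]). The class level was thus slightly higher in takinib although C4b was lower in the Ccl8 and H2-Ab1 clusters. The direction over the class turned in 2 settings. Its log2 ratio was -0.29 with clusters named by the highest score alone and -0.24 [-0.34, -0.14] against Xist-only vehicle cells.

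Fibroblast-like cells had C4b at 652 CPM in vehicle against 1006 CPM in takinib (log2 ratio 0.63 [0.48, 0.77]). The unnamed Dcn cluster again went the other way, with 845 and 204 CPM (log2 ratio -2.05), and both groups together had 702 and 323 CPM (log2 ratio -1.12 [-1.22, -1.01]). With each library clustered on its own the fibroblast-like log2 ratio of C4b was -1.39. Epithelial-like cells had 46.8 and 43.9 CPM and endothelial-like cells 41.1 and 36.2 CPM, both with intervals of the log2 ratio that include 0. T-like cells had 113 and 59.0 CPM, neutrophil-like cells 38.3 CPM (14 UMIs) and 15.9 CPM, and B-like cells 28.2 CPM (11 UMIs) and 11.6 CPM. C4b has a near-identical neighbour, C4a, that counting can split reads with or lose reads to. C4a had 22 UMIs in vehicle and 34 in takinib over all kept cells.

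Cfb, the factor B of the alternative convertase, was higher in takinib in the fibroblast-like and macrophage-like classes, though not in each macrophage-like cluster. In fibroblast-like cells it was at 195 CPM in vehicle against 392.5 CPM in takinib (log2 ratio 1.008 [0.76, 1.25]), close to the limit of 2-fold, and in the unnamed Dcn cluster at 924 and 441 CPM (log2 ratio -1.07). Both groups together had 382 and 434 CPM (log2 ratio 0.18 [0.07, 0.30]). The fibroblast-like value stayed past 2-fold in 5 of 14 alternative settings, with a lowest value of 0.16. In macrophage-like cells Cfb was at 85.0 and 126.5 CPM (log2 ratio 0.57 [0.49, 0.66]), with 273 CPM in the takinib Mmp12 cluster. It was at 71.4 and 92.4 CPM in the Ccl8 cluster and 62.3 and 71.9 CPM in the Chil3 cluster, both with intervals of the log2 ratio that include 0. The H2-Ab1 cluster went the other way, with 93.3 and 60.2 CPM (log2 ratio -0.63).

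Outside these cells Cfb was at 46.1 and 68.6 CPM in epithelial-like cells (log2 ratio 0.57 [0.43, 0.72]), and 14.8% of vehicle and 14.1% of takinib Cfb UMIs were in that class. That log2 ratio was below 0 in 2 of 13 alternative settings, at -0.75 with each library clustered on its own. Endothelial-like cells had 24.9 and 75.2 CPM from 54 UMIs in each library (log2 ratio 1.59 [1.021, 2.16]), a value that was -0.12 with cells thinned to 1000 UMIs. T-like cells had 18.8 and 26.7 CPM, neutrophil-like cells 13.7 CPM (5 UMIs) and 7.39 CPM, and B-like cells 7.70 CPM (3 UMIs) and 5.63 CPM. Intervals of the log2 ratio included 0 in these last 3 classes.

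**Figure D3:**
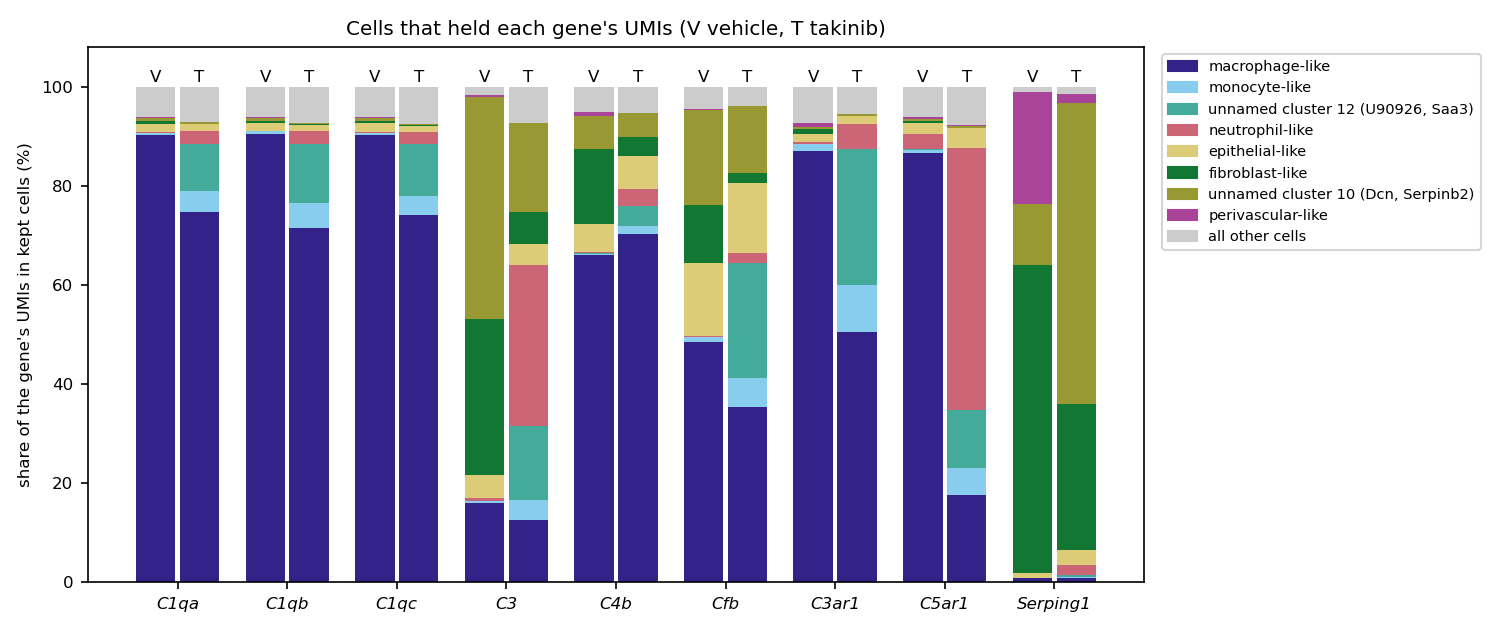
Share of each gene's UMIs in kept cells (y axis, %) by the cells that held them, for vehicle (V) and takinib (T). The C1q bars are mostly macrophage-like in both libraries. The C3 and C5ar1 bars gain a neutrophil-like part in takinib, 32.3% and 52.8%, and the fibroblast-like part of Serping1 goes from 62.0% to 29.4%.

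The receptor of C3a, C3ar1, was higher in takinib macrophages. Macrophage-like cells had 94.4 CPM in vehicle against 175 CPM in takinib, 1.85-fold higher (log2 ratio 0.89 [0.81, 0.97]). It was higher in each of the 4 macrophage-like clusters that held 100 cells or more per library: 106 and 183 CPM in the H2-Ab1 cluster (log2 ratio 0.79), 46.2 and 75.8 CPM in the Chil3 cluster (0.71), 218 and 377.5 CPM in the Ccl8 cluster (0.79) and 46.7 and 79.2 CPM in the Pclaf cluster (0.76). These amounts depended on the vehicle cells used. Against Xist-only vehicle cells, which had 56.7 CPM over the class, the log2 ratio was 1.63, with 0.76 in the H2-Ab1 cluster and 1.23 in the Chil3 cluster. Y-linked-only vehicle cells had 106 CPM in the H2-Ab1 cluster and 68.3 CPM in the Chil3 cluster, the latter close to the takinib level.

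The unnamed U90926 cluster had C3ar1 at 211 CPM and monocyte-like cells at 123.5 CPM in vehicle against 192 CPM in takinib. Macrophage-like cells held 87.0% of C3ar1 UMIs in vehicle and 50.5% in takinib, with 27.4% of the latter in the U90926 cluster. In other classes the level was low: 3.42 and 7.76 CPM in epithelial-like cells (log2 ratio 1.18 [0.67, 1.72]), 45.0 and 47.9 CPM in T-like cells, 21.9 CPM (8 UMIs) and 16.6 CPM in neutrophil-like cells, 13.4 and 12.5 CPM in endothelial-like cells, 9.83 and 5.40 CPM in fibroblast-like cells and 5.14 CPM (2 UMIs) and 16.5 CPM in B-like cells.

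The receptor of C5a, C5ar1, was in macrophages in vehicle and mostly in neutrophils in takinib. Over all kept cells it was at 71.2 CPM in vehicle against 213 CPM in takinib, 2.98-fold higher (log2 ratio 1.58 [1.52, 1.63]). Macrophage-like cells held 86.7% of its UMIs in vehicle and 17.6% in takinib, and neutrophil-like cells 3.04% and 52.8%. Within macrophage-like cells it was at 128 and 154 CPM (log2 ratio 0.26 [0.19, 0.33]), a difference much smaller than over all cells. This difference depended on the vehicle cells used. Xist-only vehicle cells of the class had 66.4 CPM, and the log2 ratio of takinib to them was 1.21, past 2-fold. With Y-linked-only vehicle cells the log2 ratio was 0.11. In the Ccl8 cluster C5ar1 was at 293 and 275 CPM, with an interval of the log2 ratio that includes 0.

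Neutrophil-like cells had C5ar1 at 249.2 CPM in vehicle against 452 CPM in takinib, 1.81-fold higher (log2 ratio 0.86 [0.56, 1.17]). In the cluster led by Ppy and Cxcr2 it was at 253 and 558 CPM (log2 ratio 1.14 [0.83, 1.47]), and the other takinib neutrophil-like clusters ran from 301 CPM (led by Stfa2) to 518 CPM (led by Acod1 and Ccl4). The Elane and Mpo cluster had 117 CPM, below each of them. Vehicle values here rest on 91 UMIs in 273 cells, of which 35 remained at a mitochondrial limit of 10%, against 11920 cells in takinib. When ratios were scaled to the median gene of the class, the log2 ratio was 1.49 and past 2-fold.

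In the epithelial, endothelial, lymphocyte and fibroblast classes C5ar1 was below its neutrophil level in each library. Epithelial-like cells had 5.88 and 48.4 CPM, 8.23-fold higher (log2 ratio 3.04 [2.68, 3.42]). Endothelial-like cells had 18.0 and 102 CPM (log2 ratio 2.50 [1.92, 3.10]). B-like cells had 18.0 CPM (7 UMIs) and 187 CPM, T-like cells 37.5 CPM (20 UMIs) and 115 CPM, and fibroblast-like cells 6.55 CPM (14 UMIs) and 28.8 CPM (16 UMIs). In the B-like cluster with vehicle cells it was at 7.83 CPM (3 UMIs) and 22.3 CPM (26 UMIs). The neutrophil transcripts S100a8 and S100a9 were higher in the same takinib classes. For 1000 UMIs of S100a8 and S100a9 there were 5.40 C5ar1 UMIs in epithelial-like, 4.24 in endothelial-like, 4.10 in B-like, 6.94 in T-like and 3.63 in fibroblast-like cells of takinib, and 3.42 in takinib neutrophil-like cells themselves. With the neutrophil profile subtracted the log2 ratio was 1.81 in epithelial-like and 0.57 in endothelial-like cells. The part of free or attached neutrophil RNA was not tested further.

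**Figure D4:**
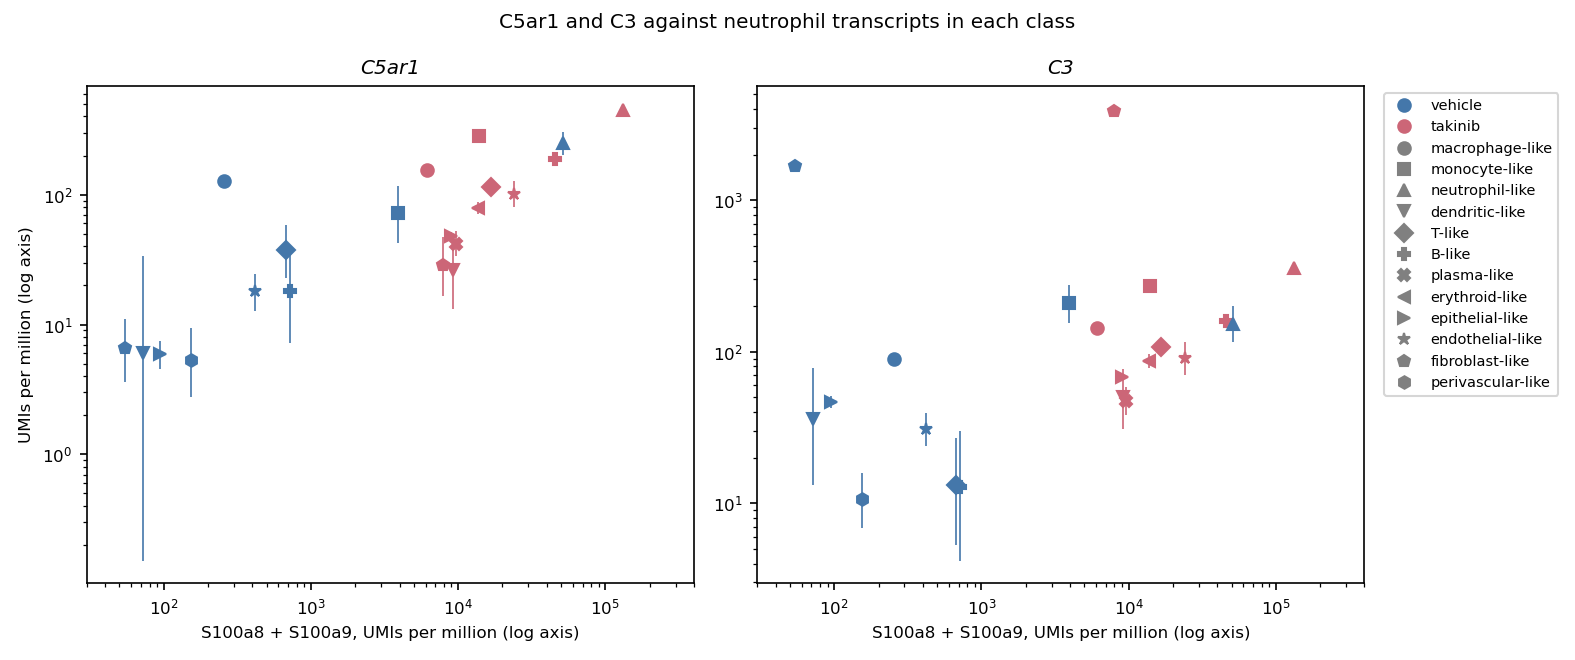
C5ar1 and C3 (y axes, CPM, log) against the summed level of S100a8 and S100a9 (x axis, CPM, log) in each class, with 95% Poisson intervals. Takinib macrophage-like and monocyte-like cells lie above the other takinib classes of like S100a8 and S100a9 level for C5ar1, at 25.2 and 20.3 per 1000 of those UMIs against 3.42 in neutrophil-like cells. For C3, fibroblast-like cells lie above all other classes in both libraries.

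Serping1, which encodes the C1 inhibitor, was a stromal transcript. In vehicle 62.0% of its UMIs were in fibroblast-like, 22.6% in perivascular-like and 12.3% in Dcn-cluster cells. In takinib 29.4% were in fibroblast-like, 1.74% in perivascular-like and 60.8% in Dcn-cluster cells. Within fibroblast-like cells it was at 2548 and 3289 CPM (log2 ratio 0.37 [0.29, 0.45]), within the Dcn cluster at 1467 and 1185 CPM (log2 ratio -0.31 [-0.41, -0.21]), and vehicle perivascular-like cells had 886 CPM. With fibroblast-like and Dcn-cluster cells together the log2 ratio was -0.60. With each library clustered on its own the fibroblast-like log2 ratio was -1.14, past 2-fold lower.

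Over all kept cells Serping1 was at 209 CPM in vehicle against 52.0 CPM in takinib, 4.02-fold lower (log2 ratio -2.01 [-2.05, -1.96]). This was the lowest ratio among the 9 members over all kept cells, while fibroblast-like cells were 5.78% of vehicle and 0.405% of takinib cells and perivascular-like cells 6.19% and 0.0556%. In endothelial-like cells Serping1 was higher in takinib, at 35.6 and 75.2 CPM (log2 ratio 1.08 [0.55, 1.60]). Against Xist-only vehicle endothelial-like cells the log2 ratio was 0.34 [-0.65, 1.48]. It was low elsewhere: 7.46 and 8.66 CPM in epithelial-like, 3.80 and 2.03 CPM in macrophage-like, 19.2 CPM (7 UMIs) and 4.47 CPM in neutrophil-like, 5.14 and 3.87 CPM in B-like and 3.75 and 2.90 CPM in T-like cells, the last 2 from 2 UMIs in vehicle.

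Member counts past 2-fold were read beside the share of all genes, without a test. A member was counted when its CPM ratio was past 2-fold and 1 of the libraries held at least 50 of its UMIs in the class, and the same rule was applied to all genes. In macrophage-like cells 0 of 9 members were lower and 0 higher, against 4.99% and 5.96% of all genes. In fibroblast-like cells 0 of 7 were lower and 2 higher (C3 and Cfb), against 9.95% and 2.83%. In epithelial-like cells 1 of 9 was lower (C1qa) and 2 higher (C3ar1 and C5ar1), against 7.72% and 7.29%. In endothelial-like cells 3 of 8 were lower (the C1q chains) and 4 higher (C3, Cfb, C5ar1 and Serping1), against 11.3% and 4.17%.

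In the leukocyte classes other than macrophages, 5 of 9 members were lower in neutrophil-like cells (the C1q chains, C4b and Serping1) and 1 higher (C3), against 35.7% and 6.61% of all genes. The vehicle class held 365172 UMIs there, and scaled to the median gene 2 members were lower and 2 higher, against 16.3% and 14.7%. With at least 10 UMIs expected in both libraries, 3 of 5 members were lower and 1 higher, against 16.2% and 12.4%. In T-like cells 3 of 8 were lower (the C1q chains) and 2 higher (C3 and C5ar1), against 3.01% and 8.38%. In B-like cells 0 of 5 were lower and 2 higher (C3 and C5ar1), against 5.28% and 14.8%. The median log2 ratio of the measured members and of all genes was 0.16 and 0.04 in macrophage-like, 0.37 and -0.15 in fibroblast-like, 0.22 and -0.14 in epithelial-like, 0.45 and -0.21 in endothelial-like, -1.15 and -0.63 in neutrophil-like, -0.42 and -0.02 in T-like and 0.50 and -0.02 in B-like cells.

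**Figure D5:**
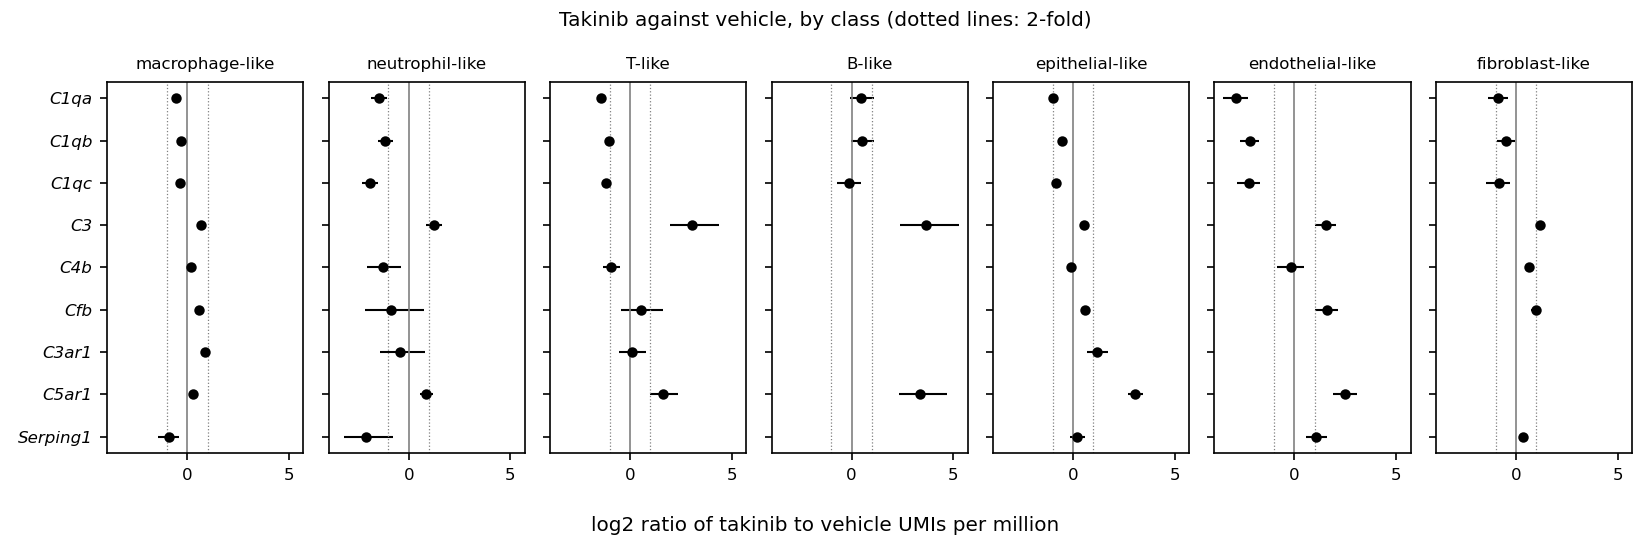
Log2 ratio of takinib to vehicle CPM (x axis) for each complement gene (y axis) in the 7 compared classes, with 95% intervals for counting error and dotted lines at 2-fold. Genes under 50 UMIs in both libraries of a class are not drawn. No macrophage-like point lies past 2-fold, while C5ar1 lies to the right of 0 in each class where it is drawn.

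Across the 14 class-by-library sums the C1q chains had nearly the same pattern, with a Pearson correlation of log2(CPM + 10) of 0.99 for each pair. These points share libraries and classes, and the correlations describe them with no test. Genes outside complement with the pattern most like a member, among 6513 genes, were Ear2, Tbxas1 and Aif1 for C1qa (0.99, 0.97 and 0.96), Cd68, Ccl9 and Mrc1 for C3ar1 (0.97, 0.97 and 0.95) and Cd274, Cd33 and Lilr4b for C5ar1 (all 0.99). Those for Serping1 were Ddr2, Fbn1 and Tnxb (all 0.99), for C3 Pi16, Crispld2 and Ube2l6 (0.94, 0.93 and 0.90), for C4b Dse, Slc8a1 and Plxdc2 (0.95, 0.95 and 0.94) and for Cfb Tmed3, Mt2 and Timp2 (0.96, 0.95 and 0.95). Among members, C3 correlated less with Cfb (0.62) and C4b (0.60), and C3ar1 with C5ar1 (0.49), than the chains of C1q with each other.

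Other complement genes were read from a list of 41. In macrophage-like cells 20 of the 41 were measured, with 5 higher past 2-fold and 1 lower, against 5.96% and 4.99% of all genes. Of 7 receptors measured there, 3 were higher, 1 was lower and 3 were within 2-fold. Cd93, a receptor of myeloid and endothelial cells once described as a C1q receptor, was at 24.7 and 125.5 CPM (log2 ratio 2.35 [2.21, 2.48]), Itgam, the alpha chain of complement receptor 3, at 156 and 415.5 CPM (1.41 [1.36, 1.47]) and Vsig4, a receptor of C3 fragments, at 1.98 and 7.95 CPM (2.01). The collectin Colec12 (14.4 and 58.3 CPM) and Cfd, factor D (1.23 and 3.06 CPM), were also higher, and the receptor Cr2 was lower (2.57 and 0.379 CPM). S100a8 and S100a9 were at 256 and 6107 CPM in the same cells, and takinib neutrophil-like cells had Itgam at 629 CPM.

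Proteases of the list were within 2-fold in fibroblast-like cells. In fibroblast-like cells 10 of 41 were measured, with 2 higher and 0 lower, against 2.83% and 9.95% of all genes. The protease genes C1s1 (778 and 681 CPM), C1ra (273 and 450 CPM), C2 (259 and 205 CPM) and Masp1 (118 and 142 CPM) were within 2-fold, while the regulators Cd55 (60.4 and 122 CPM) and Clu (459 and 949 CPM) were higher past it. C1ra and C1s1 have near-identical copies, C1rb and C1s2, with 6 to 26 UMIs a library over all kept cells. In epithelial-like cells 19 were measured, with 6 higher and 0 lower, against 7.29% and 7.72% of all genes, and the most abundant was Clu (clusterin), at 18777 and 20150 CPM (log2 ratio 0.10 [0.09, 0.11]). Among the 6 were Itgam (8.68 and 83.2 CPM), Itgb2 (11.1 and 53.6 CPM) and C5ar2 (0.614 and 2.49 CPM), in a class with S100a8 and S100a9 at 94.7 and 8954 CPM, and Fcna (5 and 26.3 CPM), Colec12 (3.68 and 7.76 CPM) and C1rl (1.67 and 3.34 CPM).

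In the remaining classes 3 of 10 measured genes of the list were higher in endothelial-like cells (Cd55, Itgam and Itgb2) and 0 were lower, against 4.17% and 11.3% of all genes. The endothelial-like level of Cd93 was 985 and 568 CPM (log2 ratio -0.79 [-0.95, -0.64]). In T-like cells 2 of 10 were higher (Itgam and Cd93) and 0 lower, against 8.38% and 3.01%. In B-like cells, where 14.8% of all genes were higher and 5.28% lower, 2 of 8 were higher (Itgam and Itgb2) and 2 lower, among them Cr2, the complement receptor of B cells, which was at 285 and 117 CPM (log2 ratio -1.28 [-1.60, -0.96]). In neutrophil-like cells, where 6.61% of all genes were higher and 35.7% lower, 0 of 20 were higher and 5 lower. Clu, C5ar2 and Itgax were among the 5, as was Cfi, which rests on 2 vehicle UMIs (log2 ratio -1.26 [-3.17, 1.81]). C5ar2, the other C5a receptor, was at 73.9 CPM (27 UMIs) and 19.5 CPM. Among the 20 measured genes, C1s1, Fcna, Cfd and Hc had 0 vehicle UMIs and 57 to 178 takinib UMIs. The 3 UMIs set for a count of 0 held their ratios at 1, so these genes could not be counted as higher.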

How the data were processed

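The deposited files hold raw UMI counts per gene and barcode, made by the authors with Cell Ranger 4 (vehicle) and 6.1.1 (takinib), per the file headers. The submitters' processing notes name mm10, Cell Ranger 2.1.1, bcl2fastq, STAR 2.0.4b, Subread and featureCounts 1.45 without saying for which step. Barcodes of the takinib library start at 500 UMIs, so they were filtered earlier, and those of the vehicle library were not.

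Barcodes were kept at a minimum of 1000 UMIs and 500 genes and a maximum of 20% mitochondrial UMIs. Scrublet removed 314 vehicle cells at its own threshold, which marked 3.18%; in takinib that threshold marked 0.00373%, so the highest 6% (1607 cells) were removed. Cells of both libraries were clustered together in Python 3.11.15 with scanpy 1.11.5 and igraph 0.11.9 (2000 variable genes without complement genes, 30 principal components, 15 neighbours, Leiden resolution 1, seed 1). Clusters were named from 17 marker lists without complement genes, by a rule set after seeing the data: at least 3 markers in 10% of cells, a second score under 0.75 of the first, and no leading genes of another class. numpy 2.4.6, scipy 1.17.1 and matplotlib 3.10.9 were also used.

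Classes with at least 100 cells in both libraries were compared by the ratio of summed CPM, with exact conditional 95% intervals. A gene was counted as lower or higher past 2-fold with at least 50 UMIs in a library, and a count of 0 was set to 3. The ratio calculation was tested on simulated data. All 9 members were given in each compared class. Of the other complement genes, those past 2-fold and abundant genes of each role were named, and 3 genes most like each member. Values of 1 gene of the list are not reported here. The members, lists and alternatives were chosen with earlier results of these data known, and 13 planned and 3 added alternatives were run.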

Additional observations from a re-analysis of the deposited data

Results flagged for a closer look

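Serping1 went in opposite directions in 2 classes: its log2 ratio of takinib to vehicle was 1.08 in endothelial-like cells and -2.10 in neutrophil-like cells, where the vehicle level rests on 7 UMIs. Against Xist-only vehicle cells the endothelial-like value was 0.34 [-0.65, 1.48]. The difference between the classes was not tested.

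C1q transcripts were present in barcodes that no comparison used. In 376283 vehicle barcodes of 1 to 100 UMIs, holding 652323 UMIs together, C1qa was at 786.4 CPM, C1qb at 761.9 CPM and C1qc at 507.4 CPM. No takinib barcodes of that size were analysed here.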

How the results depend on the processing

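Of 55 member ratios, 25 were past 2-fold. Of these, 9 were past it in every alternative that was run for them, and 21 kept their sign. C3 in fibroblast-like cells reversed to -0.448 with no doublets removed, -0.487 with complement genes among the clustering genes, -0.042 with each library clustered on its own and -0.492 with the Dcn cluster merged. Cfb in endothelial-like cells reversed to -0.119 with cells thinned, C1qa in epithelial-like cells to 0.0663 with complement genes included and 1.36 with own clustering, and C3 in endothelial-like cells to -0.879 against Xist-only vehicle cells. Member counts past 2-fold moved as follows. Percentages in brackets are the share of all genes counted in the same direction. On log2(CPM + 10), epithelial-like had 0 lower (1.89%) and 1 higher (2.24%) and fibroblast-like 1 higher (2.09%). At 2000 UMIs and 1000 genes, fibroblast-like had 1 lower (10.3%) and 1 higher (2.81%), and at 10% mitochondrial UMIs 1 higher (2.87%). With no doublets removed, epithelial-like had 0 lower (7.74%) and fibroblast-like 4 lower (10.1%) and 1 higher (6.79%). With the highest 6% removed in both libraries, epithelial-like had 0 lower (7.52%) and fibroblast-like 1 higher (2.81%). Thinned, epithelial-like had 0 lower (9.13%) and 1 higher (6.64%) and fibroblast-like 1 higher (3.53%). With complement genes included, macrophage-like had 1 lower (5.13%), epithelial-like 0 lower (7.32%), neutrophil-like 0 higher (6.44%) and fibroblast-like 4 lower (10.4%) and 1 higher (7.02%). With own clustering, macrophage-like had 1 lower (4.97%), epithelial-like 5 higher (8.39%), neutrophil-like 2 higher (8.54%) and fibroblast-like 3 lower (9.92%) and 1 higher (11.3%). The share of all epithelial-like genes counted as lower was 29.8% with own clustering. Named by the highest score, macrophage-like had 1 higher (6.66%). Scaled to the median gene, epithelial-like had 0 lower (5.8%) and neutrophil-like 2 lower (16.3%) and 2 higher (14.7%). Against Xist-only vehicle cells, macrophage-like had 1 lower (2.34%) and 3 higher (7.98%) and epithelial-like 0 lower (8.86%). Of the alternatives chosen after seeing the data, 10 UMIs in both libraries left 3 of 5 measured members lower (16.2%) in neutrophil-like. Y-linked-only vehicle cells gave epithelial-like 0 lower (7.22%) and 1 higher (8.23%) and fibroblast-like 1 lower (9.97%). The merged Dcn cluster gave 4 lower (10.3%) and 1 higher (7.03%). In the other classes, endothelial-like (3 lower, 4 higher) had 2 lower (10.8%) and 3 higher (4.22%) with no doublets removed and 1 lower (12.4%) with own clustering. Thinned, it had 0 higher (3.55%), but only 3 of its members were measured there, all of them lower (14.5%). It had 2 higher both against Xist-only vehicle cells (14.2%) and with the neutrophil profile subtracted (3.14%). B-like (0 lower, 2 higher) had 0 higher (7.1%) with no doublets removed, where only 3 members were measured. C3 and C5ar1 were at log2 ratios of 1.17 and 1.21 there but under 50 UMIs. B-like had 1 lower (3.94%) and 3 higher (11.1%) with complement genes included, and the same counts at 20 UMIs (8.69% and 14.4%). T-like (3 lower, 2 higher) ran from 2 to 4 lower (1.31% to 10.7%) and from 0 to 2 higher (4.59% to 13.5%). The 0 higher came with own clustering, where only 4 members were measured. T-like C3 stayed past 2-fold in 12 of 12 alternatives, with a lowest value of 1.93. Neutrophil-like (5 lower) reached 7 lower (38.4%) with own clustering. Single calls were also lost for Cfb in fibroblast-like cells (kept in 5 of 14 alternatives, lowest 0.16), C3ar1 in epithelial-like cells (lowest 0.404), C3 in neutrophil-like cells (0.904), C4b in neutrophil-like cells (-0.643), C5ar1 in T-like cells (0.888) and Serping1 in endothelial-like cells (kept in 9 of 13). The causes were not tested. Alternatives leaving under 50 cells in a class were not run: B-like in 5 settings, neutrophil-like in 4 and T-like in 1. No paired analysis was possible because each group has 1 library.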
